A study of Drosophila melanogaster and Drosophila biarmipes with 20 samples.

Results

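On 6 scaffolds of Drosophila biarmipes, more than a minimum share of the open chromatin regions of the mid-pupal wing was gone late in pupal development. These 6, called the late-closing scaffolds here, carried 7346 of the 106112 regions found in the species, or 6.92%. The number depends on both replicates: with 1 library per stage, 23 scaffolds with 59084 regions (without replicate 1) or 15 with 29812 (without replicate 2) met the same rule, the 6 among them. They were chosen from the data by that loss. The lists of open regions of 10 libraries were merged where entries overlapped, which gave the union regions. A scaffold entered if both libraries of the 48% stage listed 150 or more of its union regions, which 34 of 2420 scaffolds met, with 89394 regions (84.2%) between them. It was taken as late-closing if 35% or more of those regions were listed by neither library of the 78% stage. The 48% and 78% libraries thus fixed the choice, and every value of that contrast is given as a description, without a test. The rule did not use the lists at 0%, 60% and 69% or those of Drosophila melanogaster. The union regions themselves, with their widths and spacing, were merged from all 10 lists, those of 48% and 78% included. The scaffolds called other below are the 28 remaining ones that met the minimum, which held 82048 regions.

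The data are ATAC-seq, in which a transposase cuts accessible DNA and inserts sequencing adapters there. Wings of male D. biarmipes and male D. melanogaster, from genome lines kept on the same food and light cycle, with no treatment or introduced allele named, were taken at 5 stages named by the part of pupal development completed, 0%, 48%, 60%, 69% and 78%, with 2 libraries per species and stage and 20 in all. Wings of several animals were pooled in each library, wing imaginal discs served for the 0% stage, and wings older than 60% were cut before they were broken up. The cutting cannot be told apart from the stage at 69% and 78%. The stages followed the expression of the pigmentation gene yellow, and the labels also write 47% for the stage named 48% here. In such bulk tissue, a change in the cells present and a change in accessibility within each cell cannot be told apart.

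A union region was called listed by a library if any entry of that library shared at least 1 base with it. Closed means listed by both libraries of the earlier stage and by neither of the later one, and opened means the reverse. An exact two-sided test of 2 libraries against 2 cannot give a p below 0.33, so single stage pairs carry no p-value. The D. biarmipes libraries rested on 63311975 to 123870286 tags and held 50630 to 68714 listed entries, and those of D. melanogaster on 56282342 to 119278540 tags with 41485 to 80705 entries. In D. biarmipes the share of tags inside listed regions was 46.6% and 50.5% at 0%, 40.8% and 52.8% at 48%, 44.2% and 43.0% at 60%, 38.2% and 35.6% at 69%, and 31.7% and 29.4% at 78%. That share was lowest in the late libraries, as was the number of listed regions on the late-closing scaffolds, and its part in the results was not tested. The tissue label could be checked in D. melanogaster alone, since the D. biarmipes lists carry no gene names. All 6 wing genes examined (nub, vg, sd, rn, ap and Bx) had regions listed by both libraries at every stage. They held 9 to 41 union regions each, and the share over all genes was not counted. The outcome therefore cannot tell wing from other tissues.

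Flies have few large chromosomes, and a draft assembly divides each of them into scaffolds. The sources used here do not place the D. biarmipes scaffolds on chromosomes. The chromosome set beside them is the D. melanogaster X. Males carry a single X, and in D. melanogaster the MSL dosage compensation complex binds along it, acetylates histone H4 at lysine 16 and raises transcription of its genes. Regions that open and close in the pupal wing include enhancers and promoters that answer to pulses of the steroid hormone ecdysone. None of this was measured in these libraries.

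The 6 late-closing scaffolds had similar shares of closed regions, of which the rule set the lower bound. A gap separated them from the others that met the minimum. On NW_016033303.1, which held 2828 of the member regions (38.5%), 591 of 1462 regions closed from 48% to 78% (40.4%). On NW_016033612.1 the count was 139 of 366 (38.0%), and on NW_016033584.1 it was 112 of 301 (37.2%). NW_016033959.1 lost 196 of 539 regions (36.4%). Just inside the threshold lay NW_016030019.1 with 116 of 325 (35.7%) and NW_016033668.1 with 270 of 757 (35.7%). Just outside it lay NW_016033728.1 with 63 of 225 (28.0%) and NW_016033022.1 with 107 of 415 (25.8%). Over all 6 scaffolds 1424 of 3750 regions closed (38.0%), against 6160 of 28427 (21.7%) on the other scaffolds and 22.2% of all regions listed by both 48% libraries. Since the rule used this contrast, the distance between the groups is what was selected. Of the 34 scaffolds, none lay between 28.0% and 35.7%. The gap depends on the minimum, since NW_016030795.1, which fell short of it with 147 such regions, lay inside at 31.3%.

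At 69%, in libraries the rule had not used, the scaffold groups were separate, and at 0% they overlapped. Of the regions listed by both 48% libraries, 1019 of 3750 (27.2%) on the late-closing scaffolds were listed by neither 69% library, against 16.2% over all D. biarmipes regions and 15.9% on the other scaffolds. The 6 scaffolds ranged from 24.7% to 29.5% and the 28 others from 6.11% to 20.9%, without overlap. NW_016030795.1, which fell short of the minimum, lay between them at 23.1%. At 60% the count was 584 (15.6%), against 9.75% over all regions and 9.80% on the others. Here the late-closing scaffolds ranged from 10.3% to 18.7% and the others from 1.67% to 12.3%, so the groups overlapped. Looking back to the disc, 804 of the 3750 regions (21.4%) were listed by neither 0% library, against 22.0% over all regions and 23.2% on the others. That backward count ranged from 17.5% to 24.9% on the late-closing scaffolds, inside the 2.78% to 31.0% of the others. The regions compared at 60% and 69% were all listed by the 48% libraries that entered the rule, so these shares are descriptions and carry no p-value.

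**Figure D1:**
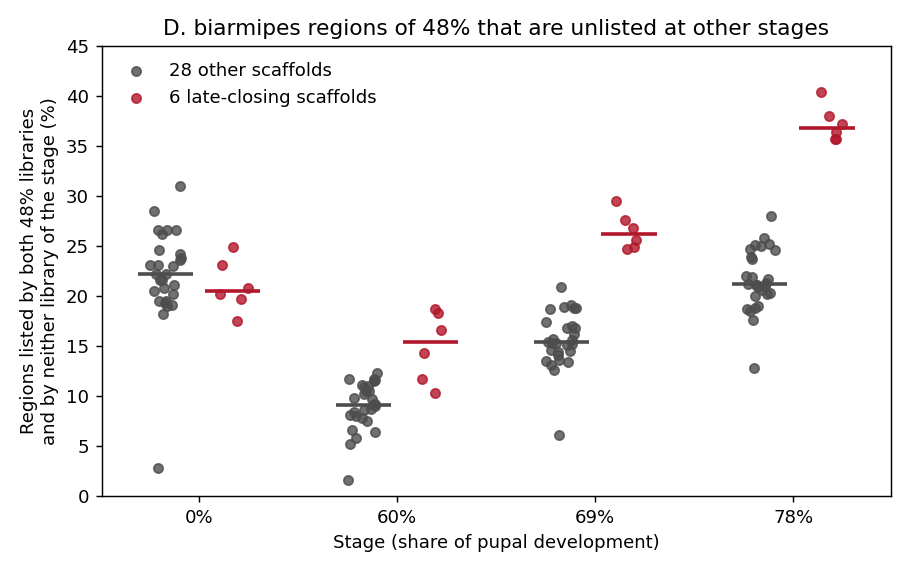
For each D. biarmipes scaffold (points, with horizontal bars at the median of each group), the share of regions listed by both 48% libraries and by neither library of the stage on the x axis, in percent. At 0% the groups overlap, at 69% the late-closing scaffolds lie from 24.7% to 29.5% and the others from 6.11% to 20.9%, and the gap at 78% was the basis of the choice. Regions unlisted at 69% were largely those also unlisted at 78%.

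Measured library by library, the weight of the late-closing scaffolds among open regions was largest at 48% and became smaller at each later stage. Their share of all regions that a library listed on the 34 scaffolds was 10.6% and 9.37% at 0%. At 48% it was 11.0% and 10.8%, and at 60% it was 8.85% and 8.24%. At 69% it was 7.72% and 7.70%, and at 78% it was 7.79% and 6.71%. Both 48% libraries lay above all others, and the 60% libraries lay below every library of 0% and 48%. Replicate 1 of 78% stood slightly above the 69% libraries, so these last stages overlapped. The 48% and 78% libraries served the rule, so their high and low places are partly what was selected.

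The stage means of that share were 9.97% ± 0.846 at 0%, 10.9% ± 0.171 at 48%, 8.55% ± 0.430 at 60%, 7.71% ± 0.0146 at 69% and 7.25% ± 0.769 at 78% (SD, n = 2 each). Among the 6 libraries that had not served to choose the scaffolds, those of 0%, 60% and 69%, the share fell with stage. Pearson's r was -0.89 (exact permutation test, two-sided, n = 6, p = 0.0111, adjusted p = 0.0222 over 2 relations), and no smaller p is possible with these libraries. Spearman's rho was -0.96 (exact permutation p = 0.0222, adjusted p = 0.0222, n = 6). Without the 2 libraries farthest from the median stage, those of 0%, r was -0.89 over the 4 that remain. Since regions unlisted at 69% were largely those unlisted at 78%, the 69% libraries are not fully free of the choice. The file headers place the libraries in folders dated June 2020 (replicate 1 and both 48% libraries) and August 2020. Over 0%, 60% and 69%, the share inside the first went from 10.6% to 8.85% and 7.72%. Inside the second it went from 9.37% to 8.24% and 7.70%, so it fell at each of these steps in both. The June libraries of 48% (11.0% and 10.8%) and of 78% (7.79%) each stood above the June library of the stage before. The 2 libraries of a stage are called biological replicates in the labels, and the p-values measure the spread between these libraries.

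The share of the X among D. melanogaster regions was also highest at 48% and smaller at each later stage. It was 10.5% and 9.88% at 0%, 13.1% and 11.6% at 48%, and 9.11% and 9.86% at 60%. It was 7.93% and 7.70% at 69% and 6.79% and 5.75% at 78%. Both 48% libraries were again the highest of the 10, and both 78% libraries were the lowest. The stage means were 10.2% ± 0.461, 12.3% ± 1.08, 9.49% ± 0.528, 7.81% ± 0.167 and 6.27% ± 0.735 (SD, n = 2 each).

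Set against its own value at 48%, the mean share on the late-closing scaffolds was 0.914 times as large at 0%, 0.783 times at 60%, 0.706 times at 69% and 0.664 times at 78%. For the X these ratios were 0.828, 0.770, 0.634 and 0.509. Over the 10 D. melanogaster libraries the relation with stage passed by rank and not by value. The mean share rose from 0% to 48% before it fell. Spearman's rho was -0.89 (permutation test with 100000 resamples, p = 0.00158, adjusted p = 0.00316) and Pearson's r was -0.56 (permutation p = 0.0962, adjusted p = 0.0962). Without the 2 libraries of 0%, the farthest from the median stage, r was -0.97 over 8 libraries. Whether the courses of the species differ was not tested. In D. melanogaster the fragment length that the caller had estimated was 138 to 208 bp in both 48% libraries, replicate 1 of 0% and replicate 2 of 60%, and 50 to 58 bp in the other 6. At 0% and 60% the library with the longer setting had the larger X share, and the part of this setting was not tested. In D. biarmipes it was 52 to 56 bp in all 10 libraries.

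**Figure D2:**
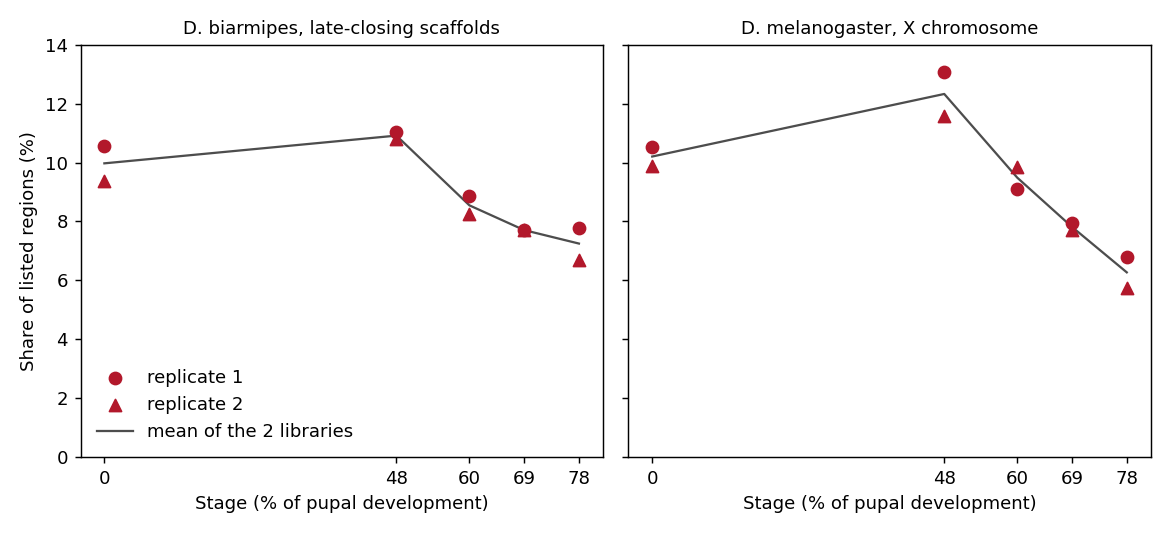
Share of each library's listed regions (y axis, percent, from 0) that lay on the 6 late-closing D. biarmipes scaffolds (left, of the 34 scaffolds) and on the D. melanogaster X (right, of 6 chromosomes), against stage. Points are libraries and the line joins stage means. In both panels the 48% libraries are highest, at 11.0% and 10.8% on the left and 13.1% and 11.6% on the right.

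A share can drop because the scaffolds lose regions or because the others gain them, so the listing rates are given for each group. These rates also differ between the 2 libraries of a stage, most of all at 48% on the late-closing scaffolds. They therefore cannot fully separate the 2 cases. On the late-closing scaffolds a library listed 64.5% and 67.3% of the 7346 regions at 0%, 52.5% and 66.1% at 48%, 53.6% and 47.8% at 60%, 46.6% and 42.5% at 69%, and 36.2% and 35.4% at 78%. On the other scaffolds the rates were 48.8% and 58.2%, 37.9% and 48.9%, 49.5% and 47.7%, 49.9% and 45.6%, and 38.3% and 44.1% in the same order. The late-closing scaffolds were listed at the higher rate in all 6 libraries of 0%, 48% and 60%, though nearly equally in replicate 2 of 60% (47.8% and 47.7%), and at the lower rate in all 4 libraries of 69% and 78%. On each of the 6 late-closing scaffolds the mean rate fell from 0% to 60% and again to 69%, which 13 of the 28 others also did. The mean rate was lower at 69% than at 48% on all 6 late-closing scaffolds and on 4 of the 28 others.

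Counted in bases, the listed length also shrank. The late-closing scaffolds had 1495 and 1562 kb listed at 0%, 1195 and 1471 kb at 48%, 1239 and 1095 kb at 60%, 1052 and 946 kb at 69% and 759 and 728 kb at 78%. Relative to 48%, the mean length was 0.876 at 60%, 0.749 at 69% and 0.558 at 78%. On the other scaffolds the same ratios were 1.09, 1.07 and 0.877, so that length was above its 48% value at 60% and 69% and below it at 78%. For the D. melanogaster X they were 0.869, 0.753 and 0.568, and for the other chromosomes of that species 1.15, 1.20 and 1.11. The length ratios of the late-closing scaffolds and of the X differed by at most 0.0102 at 60%, 69% and 78%. At 0% they were 1.15 and 1.09. All are relative to 48%, where the libraries differed on the scaffolds (1195 and 1471 kb), and 48% and 78% served the rule. The share ratios given above lay farther apart at each later stage, with 0.664 and 0.509 at 78%. In D. melanogaster the caller's fragment length was 162 and 206 bp at 48% and 52 to 58 bp at 69% and 78%. In D. biarmipes it was 52 to 56 bp throughout, so the lengths are not alike in the 2 species, and the part of this was not tested. Whether the scaffolds and the X have the same course was not tested.

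**Figure D3:**
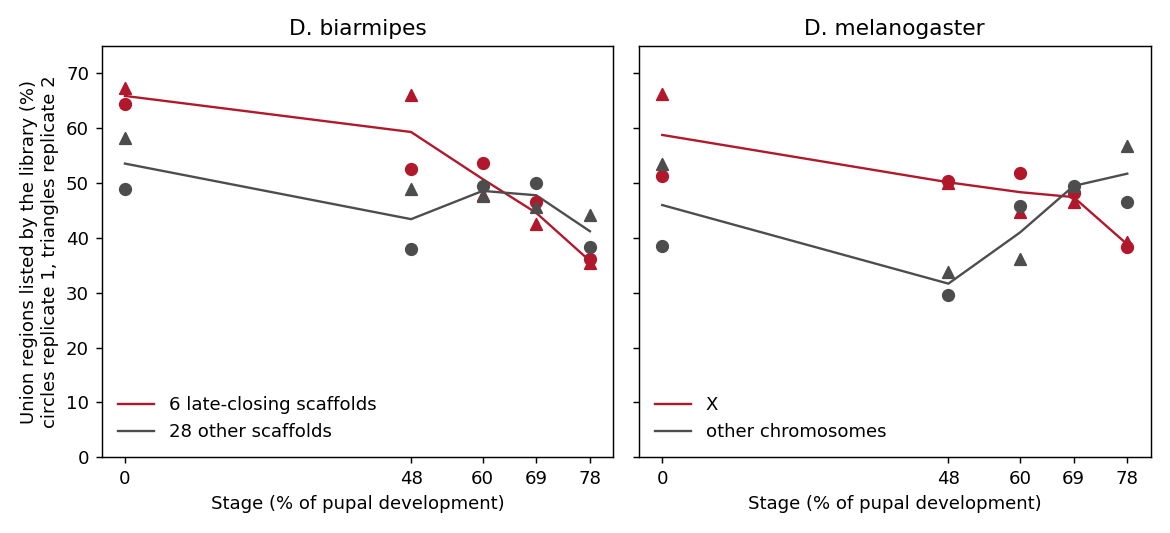
Share of union regions that each library listed (y axis, percent, from 0) by stage, for the late-closing scaffolds or the X (red) and for the other scaffolds or chromosomes (grey). Circles are replicate 1, triangles replicate 2, and lines join stage means. The red and grey courses cross between 60% and 69% in both species.

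Step by step, the late-closing scaffolds had larger closed shares than the others at each step from 48% on, and smaller opened shares. From 48% to 60%, 15.6% of their regions closed, as given above, and 224 of the 3399 regions listed by both 60% libraries had opened (6.59%, against 14.2% over all regions and 13.4% on the other scaffolds). From 60% to 69%, both stages outside the rule, 498 of 3399 closed (14.7%, against 10.4% over all regions and 10.6% on the others) and 223 of 2993 had opened (7.45%, against 9.85% and 10.1%). That larger closed share did not hold under every setting. The steps from 48% to 60% and from 69% to 78%, which each use libraries of the rule, were not varied. The scaffolds ranged from 11.3% to 15.7% and the others from 3.37% to 19.0%, and with replicate 2 alone 21.8% closed on the late-closing scaffolds against 23.2% on the others. From 69% to 78%, 391 of 2993 closed (13.1%, against 9.52% over all regions and 10.4% on the others) and 29 of 2389 had opened (1.21%, against 4.0% over all regions and 2.65% on the others).

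The step into the pupal wing went the other way. From 0% to 48%, 1248 of 4417 regions on the late-closing scaffolds closed (28.3%), which is less than the 32.9% over all regions and the 33.3% on the others. Single late-closing scaffolds ranged from 25.4% to 31.1% and the others from 24.5% to 54.2%. From 48% to 78%, the contrast behind the choice, 215 of 2389 regions had opened (9.00%, against 20.2% over all regions and 16.0% on the others).

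On the D. melanogaster X, too, closed shares lay above those of all regions at each step from 48% on and below them before. From 48% to 60%, 557 of 3591 X regions closed (15.5%, against 7.82% over all regions). From 60% to 69% the count was 348 of 3439 (10.1%, against 4.84%), and from 69% to 78% it was 481 of 3469 (13.9%, against 7.89%). Over the span from 48% to 69%, 841 of 3591 closed (23.4%, against 10.7%), and over that from 48% to 78%, 1155 (32.2%, against 13.5%). From the disc to 48%, 1261 of 3899 X regions closed (32.3%), below the 36.2% over all regions. From 48% to 78%, 467 of 2769 had opened (16.9%, against 31.9%). The other D. melanogaster chromosomes closed at 10.7% to 12.2% from 48% to 78%.

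The regions that closed by 78% were followed through the stages between. Of the 1424 on the late-closing scaffolds, 668 (46.9%) were still listed by both 60% libraries and 248 (17.4%) by both 69% libraries, while 542 (38.1%) were listed by neither at 60% and 984 (69.1%) by neither at 69%. The 6160 closed regions of the other scaffolds had similar shares, with 46.6% listed by both libraries at 60% and 18.1% at 69%, and 36.4% and 65.9% by neither. Of the 2055 regions kept to 78%, both libraries listed 2006 (97.6%) at 60% and 2027 (98.6%) at 69%, against 96.8% and 97.9% of those kept on the other scaffolds. Both 0% libraries listed 736 of the 1424 closed regions (51.7%) and 1866 of the 2055 kept ones (90.8%). On the other scaffolds those shares were 42.7% of closed and 81.1% of kept regions. On the D. melanogaster X, 504 of 1155 closed regions (43.6%) were listed by both libraries at 60%, 234 (20.3%) at 69% and 413 (35.8%) at 0%. On the other chromosomes of that species these shares were 41.0%, 21.4% and 38.4%.

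**Figure D4:**
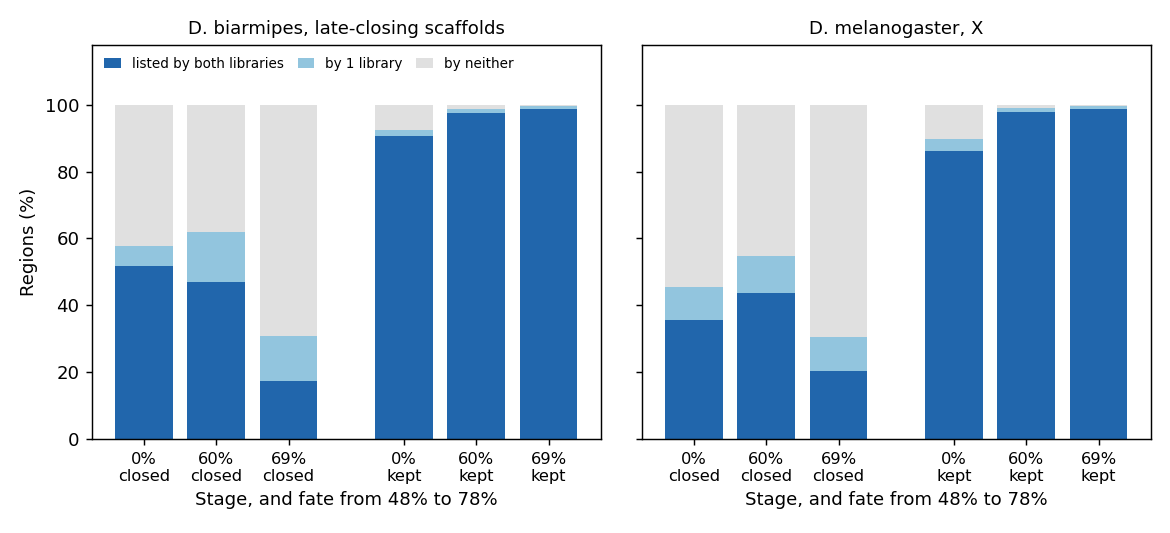
Regions listed by both 48% libraries on the late-closing D. biarmipes scaffolds (left) and on the D. melanogaster X (right), grouped by whether they closed or were kept to 78% (listed by neither or by both 78% libraries). Bars show the share (y axis, percent, from 0) listed by both, 1 or neither library at 0%, 60% and 69%. Of the closed regions on the left, 46.9% were listed by both libraries at 60% and 17.4% at 69%.

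Closed regions were narrower than kept ones. At 48% a closed region on the late-closing scaffolds had a median listed length of 206 bp (quartiles 141 and 336 bp), and a kept region one of 282 bp (quartiles 190 and 504 bp). The 271 regions listed by only 1 of the 78% libraries had a median of 198.5 bp (quartiles 139.5 and 327 bp). Narrow width was thus not particular to closed regions. Kept regions on the other scaffolds were wider, with a median of 376 bp, so width was compared within classes. Among regions of up to 200 bp, 689 of 1418 closed on the late-closing scaffolds (48.6%) and 36.2% on the others. From 200 to 400 bp it was 475 of 1304 (36.4%) and 22.2%. From 400 to 800 bp it was 238 of 832 (28.6%) and 11.6%, and from 800 to 1600 bp 22 of 180 (12.2%) and 3.64%. None of the 16 regions over 1600 bp closed on the late-closing scaffolds, and 4 of 335 did on the others. In the 69% libraries the same classes up to 1600 bp were unlisted at 34.3%, 27.8%, 19.4% and 5.56%, against 27.7%, 16.2%, 7.63% and 1.84% on the others. The rule did not use these libraries, but their unlisted regions were largely those unlisted at 78%. In every class up to 1600 bp the late-closing scaffolds had the larger share at both stages. The median width of entries on these scaffolds was 192 bp ± 3.54 (SD, n = 2) at 78%. Before that it had stage means from 204 to 210 bp, with SDs of 0.707 to 2.12 bp. Mean widths of entries were 282 and 291 bp at 0% and 246 and 238 bp at 78%. On the others they were 285 and 290 bp at 0% and 272 and 267 bp at 78%.

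Regions on the late-closing scaffolds were also sparse. Taking the last listed base as the end of each scaffold, the 6 spanned 16.8 Mb with 436 union regions per Mb, and the 28 others spanned 101 Mb with 809 per Mb. NW_016033668.1 had the lowest density with 374 per Mb and NW_016033612.1 the highest with 505 per Mb. The median gap between neighbouring regions was 571 bp on the late-closing scaffolds and 392 bp on the others. Of the 28 others, NW_016033728.1 and NW_016033970.1 were as sparse, with 375 and 373 per Mb, and the next, NW_016033048.1, had 688 per Mb. NW_016033728.1 is the scaffold just outside the threshold, and 19.1% of its 48% regions were unlisted at 69%. NW_016033970.1 had 24.7% of its regions closed by 78%, and 13.6% were unlisted at 69%. The D. melanogaster X likewise held 338 regions per Mb, against 815 on the other chromosomes.

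**Figure D5:**
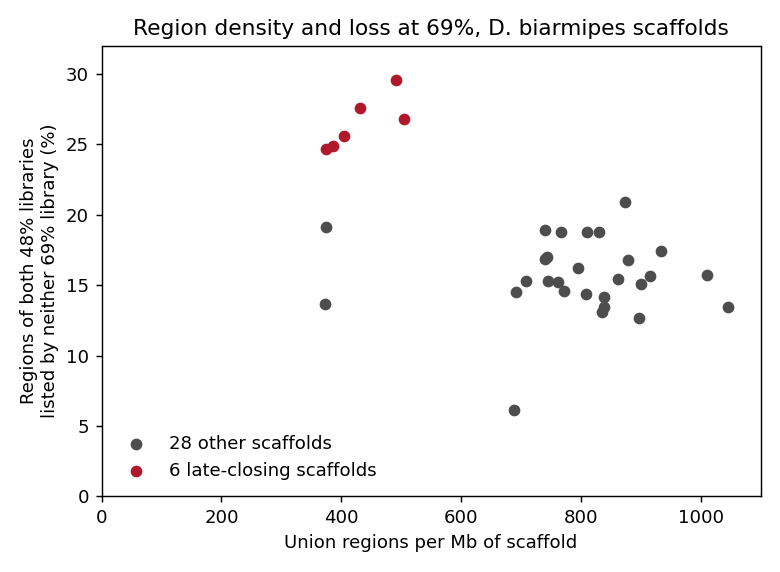
Union regions per Mb of scaffold (x axis) and the share of regions listed by both 48% libraries but by neither 69% library (y axis, percent) for 34 D. biarmipes scaffolds. The late-closing scaffolds lie from 374 to 505 regions per Mb and from 24.7% to 29.5%, and 2 other scaffolds of similar density lie at 19.1% and 13.6%.

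Both 48% libraries listed 51.0% of the union regions on the late-closing scaffolds, with single scaffolds from 49.0% to 53.8%, and 34.6% on the others, from 20.7% to 45.4%. On the D. melanogaster X the share was 45.2%, and on the other chromosomes 26.8%. Regions found in all 10 libraries were 1828 of 7346 (24.9%) on the late-closing scaffolds and 18.8% on the others. Regions found in a single library were 1250 (17.0%) and 24.2%.

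Courses over all stages were read from the 4295 member regions (58.5%) whose libraries gave the same answer at every stage, and from 34436 on the others (42.0%). Accessibility limited to the disc was the commonest changing course in both, with 1031 regions (24.0%) and 22.7%. Courses that ran without a break up to 48%, 60% or 69% and stopped there were each more frequent on the late-closing scaffolds. Those listed at 0% and 48% alone numbered 179 (4.17% against 1.68%), those listed up to 60% numbered 172 (4.0% against 1.84%) and those listed up to 69% numbered 155 (3.61% against 1.70%). Regions listed at 48% alone numbered 289 (6.73% against 3.74%). Courses that began after the disc and lasted to the end were fewer, with 133 listed from 48% on (3.10% against 6.86%) and 61 at 69% and 78% (1.42% against 2.23%). As these courses contain the stages of the rule, they describe its outcome.

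Closing was spread along the scaffolds. In 84 windows of 200 kb with at least 10 regions listed by both 48% libraries, the closed share at 78% had a median of 35.8% and ran from 11.8% to 67.3%. It was 25% or more in 76 of the 84 windows (90.5%), against 139 of 505 windows (27.5%) on the other scaffolds. The rule chose the scaffolds on this closed share, so that difference is largely what was selected. At 69% the median over windows was 25.5% (7.69% to 57.1%), against 13.6% (0% to 41.3%) on the others. The unlisted share at 69% was 25% or more in 46 of the 84 windows (54.8%), against 47 of 505 (9.31%). The regions behind it were largely those also unlisted at 78%. Neighbouring regions share a stretch of chromatin and are not independent of each other.

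Single regions show how these courses look in the lists. The coordinates are counted from 1 on the scaffolds as the lists name them, and the sources used here do not name their build. The widest region that closed lay on NW_016033303.1 from 1789846 to 1791294. No base of it was listed at 0%, 1196 and 1416 bp were listed at 48%, 749 and 657 bp at 60% and none at 69% or 78%. It was thus listed at 48% and 60% alone, in both libraries of each.

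Another, on NW_016033303.1 from 2720875 to 2722274, was widest in the disc. At 0% its libraries listed 1378 and 1350 bp. At 48% they listed 101 and 407 bp, at 60% 160 and 181 bp, at 69% 289 and 170 bp, and none at 78%. Most of its listed width was thus seen in the disc alone.

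The region on NW_016033303.1 from 4050711 to 4052090 was listed over 1246 and 1340 bp at 0% and over 666 and 669 bp at 48%. It was wider again in both 60% libraries, with 896 and 881 bp, and then covered 357 and 353 bp in those of 69% and no base at 78%. On NW_016030019.1, the region from 1473887 to 1475226 peaked at 48%, with 774 and 1340 bp. It had 320 and 161 bp at 0%, 505 and 480 bp at 60% and none later. In all 4 of these widest closed regions both libraries of each stage were on the same side.

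Some regions were open at 48% and in no other library, 289 in all. The widest pair lay close together on NW_016033612.1. The region from 679962 to 681137 was listed over 1104 and 1173 bp in the 48% libraries, and that from 688850 to 689961 over 947 and 1100 bp. A further one, on NW_016033303.1 from 300732 to 301458, was listed over 637 and 727 bp.

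The longest run of neighbouring 48% regions that all closed held 11 regions on NW_016033303.1 from 179617 to 198515, over 18.9 kb. The stretch holds 13 union regions. The libraries listed 6 and 4 of them at 0%, 11 and 11 at 48%, 5 and 3 at 60%, 2 and 2 at 69% and none at 78%. On the other scaffolds the longest such run held 18 regions, so a run of this length was not particular to the late-closing ones.

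Regions that opened were followed in the same way. The widest opened region, on NW_016033959.1 from 2539402 to 2540352, had been listed in the disc over 453 and 507 bp, was absent at 48%, and returned in both libraries of 60% (146 and 101 bp), of 69% (589 and 607 bp) and of 78% (101 and 138 bp). The region on NW_016033303.1 from 2867290 to 2868094 was listed in replicate 2 of 0% over 134 bp and over 773 and 791 bp at 69%. At 78% it was listed over 212 and 181 bp. On NW_016033303.1, the region from 4805421 to 4806165 had 637 and 727 bp in the disc and none at 48%. Its later libraries listed 101 bp each at 60%, 248 and 185 bp at 69%, and finally 218 and 153 bp. All 3 were narrower at 78% than at 69%.

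The 3 widest regions listed by all 10 libraries, persistent by that choice, were narrower at 78% than at 48%. The widest member listed by all 10 libraries, on NW_016030019.1 from 968278 to 973273, covered 4257 and 4172 bp in the disc and 4570 and 4996 bp at 48%. At 60% this was down to 2291 and 2101 bp, at 69% to 1815 and 1677 bp, and the 78% libraries had 1958 and 1839 bp. Next came the region on NW_016033303.1 from 3746268 to 3748855, with 1769 and 1783 bp in the disc and 2167 and 2326 bp at 48%. It kept 2265 and 2077 bp through 60% and 2108 and 1829 bp through 69%, and the 78% libraries had 1315 and 1273 bp. The region on NW_016033612.1 from 727478 to 729947 had 2118 and 2091 bp in the disc and 2062 and 2112 bp at 48%. The 60% libraries listed 1480 and 1460 bp, those of 69% listed 1341 and 1413 bp, and those of 78% listed 1657 and 1489 bp. In these 3 regions both 78% libraries listed fewer bases than both 48% libraries. The first and the last were wider at 78% than at 69%, so the loss was not steady, and broad regions as a group were not examined.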

How the data were processed

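Open regions were taken from the authors' deposited lists, 1 for each of 20 libraries. Bowtie2, Picard, SAMtools, MACS2 and HOMER (no versions) and the build dm6 are named in the submitters' processing notes, and no source used here gives the build of the D. biarmipes scaffolds. HOMER findPeaks made the lists in histone style, per the file headers, with windows of 100 bp, a Poisson p threshold of 0.001, a local filter of 10 kb and a genome size of 120 Mb for both species. The caller's fragment length was 52 to 56 bp for the D. biarmipes libraries but 50 to 208 bp for those of D. melanogaster. The deposited score is the constant 1 and ranks nothing. The other deposited columns are coordinates, so widths and counts of regions are the only measurements. The authors' pooled lists of 48% and 78% served as an alternative.

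Overlapping entries were merged per species with Python 3.11.15 and pandas 2.3.3, which gave 106112 regions in D. biarmipes and 98646 in D. melanogaster. In D. melanogaster, 6 chromosomes met the minimum of 150. Permutation tests used numpy 2.4.6. The code of the rule was run on simulated lists in which closing differed more between scaffold groups than in the data. That run checks the code and cannot show how firm the choice of scaffolds is. The scaffolds, comparisons and lists were chosen with earlier results of these data known. Named scaffolds are all members and the 2 nearest the threshold from outside. NW_016033970.1 and NW_016033048.1 were named after their values were seen. Named regions are the widest of each course. No gene names, sequences or chromosome assignments of D. biarmipes were used here.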

Additional observations from a re-analysis of the deposited data

How the results depend on the processing

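Among the relations with stage, that of the late-closing scaffolds kept its direction and stayed past 0.05 under all alternatives with both replicates. These were 50% coverage, the first 10000 entries, equal list lengths, listed length, 1 kb bins, all scaffolds as denominator and, chosen after seeing the data, leaving out the largest scaffold (r from -0.98 to -0.87). Without replicate 1 or 2 it was -0.98 and -0.96 over 3 libraries, where an exact permutation p cannot go below 0.167. Same-numbered libraries did not deviate together (r -0.0172 to 0.0247 over 10 stage pairs in D. biarmipes, -0.0557 to 0.0235 in D. melanogaster). With the replicate block r was -0.94 (exact permutation p = 0.0278) for the scaffolds and -0.56 (exact permutation p = 0.125) for the X, which changed no call. The X relation passed with the first 10000 entries (r = -0.84), listed length (-0.67) and 1 kb bins (-0.67), and not otherwise (-0.62 to -0.56).

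The closed share from 48% to 78% on the late-closing scaffolds was 47.9% with 50% coverage, 49.9% in the first 10000 entries, 47.6% in the pooled lists and 42.0% to 52.8% with 1 replicate. The other scaffolds then had 34.9%, 31.3%, 31.3% and 32.2% to 35.8%. On the X it was 61.1%, 52.0%, 39.5% and 40.1% to 40.2%, with 39.8% at equal lengths and 31.7% in bins. The other chromosomes had 32.9%, 26.2%, 15.7%, 18.5% to 22.2%, 20.8% and 8.57% in the same order, against 10.8% with the settings of the report. From 60% to 69% the closed share on the late-closing scaffolds was 19.3% with 50% coverage and 24.1% in the first 10000 entries, against 16.2% on the other scaffolds under both. It was 21.8% without replicate 1 and 23.8% without replicate 2, against 23.2% and 20.9% on the others.

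A threshold of 40% left 1 scaffold with 2828 regions. Thresholds of 30% and minimums of 100 or 300 left the same 6. With 1 replicate, 15 to 23 scaffolds with 29812 to 59084 regions passed, all 6 among them. Median widths in the first 10000 entries were 594, 558, 574, 560 and 472 bp at the 5 stages, since list order goes with width, and 190 to 210 bp with 1 replicate. The lists carry no counts per region, so depth at single regions is unknown.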

Other observations

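Some scaffolds fell short of the minimum of 150 regions listed by both 48% libraries and entered neither scaffold group. NW_016033250.1, with 97 such regions among 228, had 42 listed by neither 78% library (43.3%), and 24.7% were unlisted at 69%. NW_016030795.1, with 147 such regions among 287, had 46 listed by neither 78% library (31.3%), and 23.1% were unlisted at 69%. NW_016033640.1 had 16 of 114 (14.0%) and NW_016033578.1 had 19 of 109 (17.4%). These are the 4 with most such regions below the minimum, chosen after their values were seen.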
